A study of Cricetiscus sungorus with 24 samples.

Results

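Podocyte and endothelial marker genes were followed in kidney RNA of the Djungarian hamster (Phodopus sungorus) as 9 genes that mark these cell types. The podocyte genes were Nphs1, Podxl, Synpo and Wt1, and the endothelial genes were Pecam1, Kdr, Flt1, Emcn and Plvap. For each gene, the transcript with the highest total count was taken in each of 2 count tables. All 9 were among the 15842 genes listed in the table of the prolactin experiment, and 6 were among the 9681 genes listed in the table of the photoperiod experiment, where Nphs1, Podxl and Plvap had no row.

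RNA was extracted from kidney tissue of 24 hamsters, and full-length cDNA was read on nanopore flow cells. Frozen kidneys had been cut across, and the part not sectioned for histology was kept for molecular work. In the prolactin experiment, 12 adult females were kept in long photoperiod, moved to short photoperiod (SP, 8 h of light per day) for 8 weeks and injected daily for 3 days, 6 with vehicle alone (SAL) and 6 with 18 µg of ovine prolactin per injection in the same vehicle (PRL), a mixture of saline and dimethyl sulfoxide that both groups received. In the photoperiod experiment, 12 adult males were kept in long photoperiod (LP, 16 h of light per day), in SP for 12 weeks (SP12wk) or in SP for 28 weeks (SP28wk), with 4 animals in each group. The comparisons address whether prolactin, or the time spent in short days, went with a change in the glomerular and vascular genes of the kidney.

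The glomerulus filters blood through a wall of fenestrated endothelium, basement membrane and podocytes, whose foot processes are bridged by the slit diaphragm. Podocytes release VEGF-A, and the endothelium senses it through its receptors, so that both cell types depend on each other. Podocytes are a small part of the cells of a whole kidney, and endothelium lines the tubular capillaries as well as the glomerular tuft. In RNA from unsorted tissue, fewer cells of a type and less RNA per cell cannot be told apart.

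Reads were sparse, and the depth of the libraries set how firmly the markers could be compared. Counted on 1 transcript per gene, SAL libraries held 218957 to 531690 reads and PRL libraries 174053 to 756523, so that 1 read was worth 1.32 to 5.75 CPM (the count scaled to a common library total). Libraries of the photoperiod experiment held 15687 to 57585 reads, and 1 read was worth 17.4 to 63.7 CPM. The 9 genes together had 275 reads in SAL and 283 in PRL, against 4.5 in LP, 6 in SP12wk and 18.5 in SP28wk, where fractions arise from reads shared among transcripts. Kidney origin showed in tubule genes, with 2324 reads of Calb1 from the distal tubule and 592 of Fxyd4 from the collecting duct in the prolactin experiment. Blood RNA was also present, since the 5 red cell genes summed to 8908 to 19490 CPM across its libraries.

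None of the 9 markers passed the test between PRL and SAL. In edgeR's quasi-likelihood test, 8 of them passed the filter of a count in at least 6 of 12 libraries, 0 had an adjusted p under 0.05 and 0 had an unadjusted p under 0.05. Over all 10696 genes tested, the same test called 0 genes (0%) after adjustment and 522 genes (4.88%) before it. DESeq2 gave none of the 8 markers an adjusted p. It called 0 of the genes that had one, and 347 genes before adjustment. The log2 fold change was above 0 for 3 of the 8 markers and for 52.6% of all genes. SAL and PRL animals overlapped in CPM for each of the 9 markers, while 0.14% of all genes tested did not overlap. The fold changes of the 8 markers lay between -0.80 and 0.35 on the log2 scale, with standard errors from 0.30 to 0.73.

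**Figure D1:**
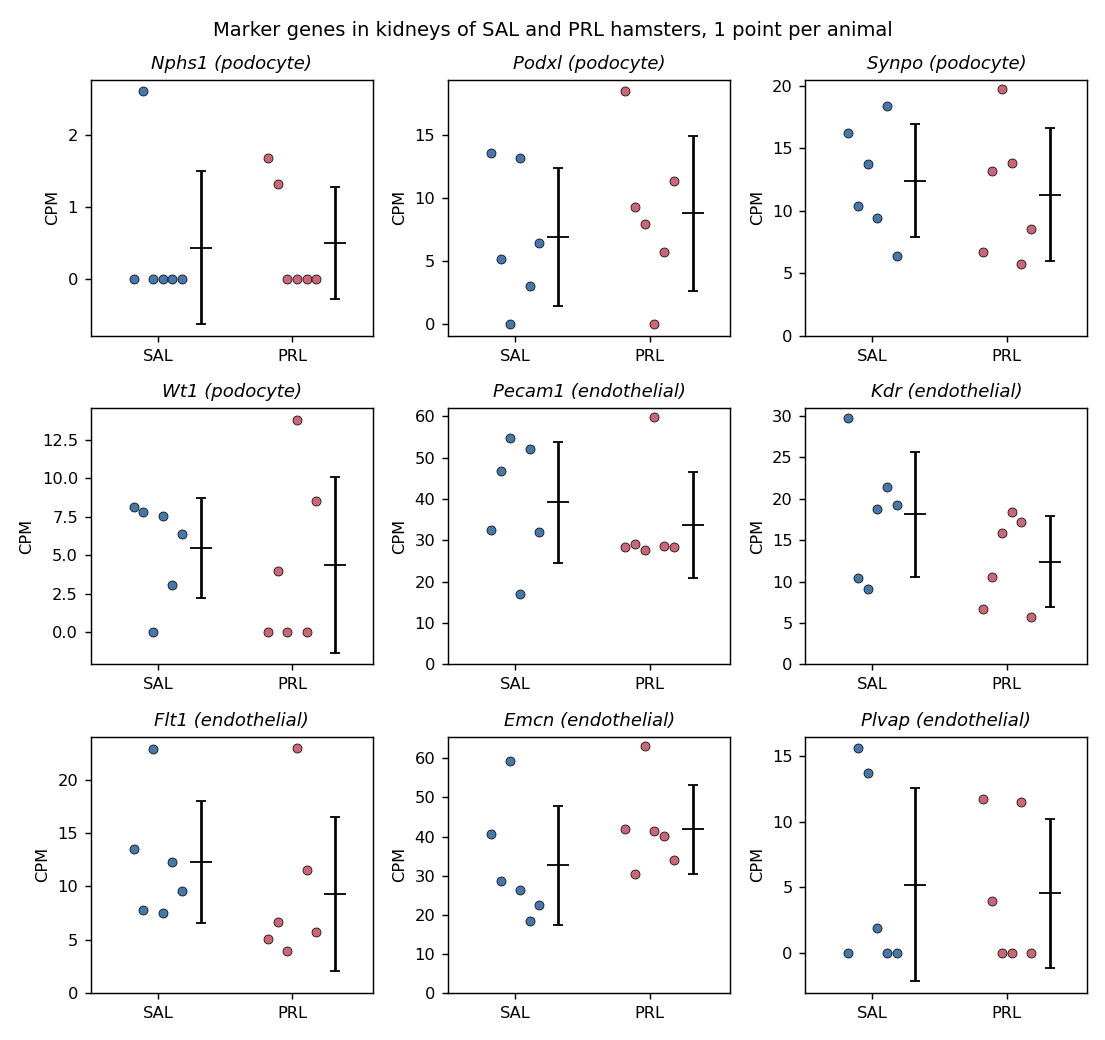
CPM of the 9 markers (vertical axes, a separate scale for each gene) in the kidneys of SAL and PRL hamsters, with 1 point per animal and, beside the points, the mean with 1 SD (n = 6 per group). The groups overlap in every panel, and Nphs1 has a read in only 3 of the 12 animals.

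Nphs1 (NM_019459.2) encodes nephrin, the adhesion protein that spans the slit diaphragm. It was nearly undetected, with 1 read in SAL replicate 2, 1 read in PRL replicate 1, 1 read in PRL replicate 2 and no read in the other animals. The mean was 0.434 ± 1.06 CPM in SAL animals and 0.499 ± 0.782 CPM in PRL (SD, n = 6 each), and the exact permutation p was 1. The gene was below the filter of the test across genes. At this depth a difference in this defining gene of the podocyte was not detectable.

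Podxl (NM_013723.3) encodes podocalyxin, the charged sialomucin that coats podocyte foot processes and is also made by endothelium. SAL animals 1 to 6 had 5, 2, 0, 7, 1 and 2 reads, and PRL animals 1 to 6 had 11, 7, 2, 0, 1 and 4. The lowest, median and highest levels were 0, 5.80 and 13.5 CPM in SAL animals and 0, 8.58 and 18.4 CPM in PRL. One animal of each group had no read, and the highest animal was in PRL. Means were 6.89 ± 5.45 CPM in SAL animals and 8.78 ± 6.11 CPM in PRL, a log2 fold change of 0.35 ± 0.54 (SE; edgeR adjusted p = 0.999). The direction was not stable, since without PRL replicate 1 the log2 fold change was -0.07.

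Synpo encodes synaptopodin, an actin-binding protein of podocyte foot processes. The row used (XM_006525475.4) was 1 of 13 listed for the gene and held 52 reads, 26 in each group. Reads were 6, 4, 3, 5, 6 and 2 in SAL animals 1 to 6 and 4, 10, 5, 3, 1 and 3 in PRL animals 1 to 6. Every animal had at least 1 read, and the ranges of 6.40 to 18.4 CPM in SAL animals and 5.75 to 19.8 CPM in PRL nearly coincided. Means of 12.4 ± 4.49 and 11.3 ± 5.32 CPM gave a log2 fold change of -0.18 ± 0.43 (edgeR adjusted p = 0.999). The spread within groups was no larger than counting error would give, with a chi-square per degree of freedom of 0.573 in SAL and 0.776 in PRL.

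Wt1 (NM_144783.2), a zinc finger transcription factor that podocytes keep in the adult kidney, had 13 reads in SAL and 9 in PRL. It was read in 5 of 6 SAL animals, which had 3, 3, 0, 4, 1 and 2 reads, and in 3 of 6 PRL animals, with 3 reads in replicates 2, 4 and 6. Levels were 0 to 8.11 CPM in SAL animals and 0 to 13.8 CPM in PRL, so that PRL held both more animals at 0 and the highest animal. The means were 5.48 ± 3.26 and 4.38 ± 5.72 CPM, and the log2 fold change was -0.62 ± 0.70 (edgeR adjusted p = 0.999). Between PRL animals, the chi-square per degree of freedom of Wt1 was 2.32, where counting error alone gives about 1. This value rests on 9 reads and was not tested.

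Among the endothelial genes, Pecam1 and Emcn carried most reads. Pecam1 (NM_001305157.1) encodes CD31, the adhesion molecule of endothelial junctions. SAL animals 1 to 6 had 12, 18, 12, 9, 17 and 10 reads, and PRL animals 1 to 6 had 17, 22, 7, 13, 5 and 10. SAL animals ranged from 16.9 to 54.8 CPM around a median of 39.6 CPM. In PRL, 5 animals lay close together between 27.7 and 29.1 CPM, and replicate 4 stood above them at 59.8 CPM. The means of 39.2 ± 14.6 and 33.7 ± 12.8 CPM gave a log2 fold change of -0.26 ± 0.30 (edgeR adjusted p = 0.999; exact permutation p = 0.496).

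Kdr (NM_010612.3) encodes VEGF receptor 2, which transmits most of the VEGF-A signal in endothelium. Reads were 11, 4, 2, 10, 7 and 6 in SAL animals 1 to 6 and 4, 8, 4, 4, 3 and 2 in PRL animals 1 to 6. Levels ran from 9.13 to 29.7 CPM in SAL (median 19.0 CPM) and from 5.67 to 18.4 CPM in PRL (median 13.2 CPM). All 6 PRL animals were therefore below the 4 highest SAL animals. The means were 18.1 ± 7.58 and 12.4 ± 5.52 CPM, and the log2 fold change of -0.80 ± 0.41 was the furthest from 0 of the 8 markers tested. It did not pass the test (edgeR unadjusted p = 0.0562, adjusted p = 0.999; exact permutation p = 0.167) and ranked 577 of 10696 genes by p. With all animals kept, a filter of a count in every library gave an unadjusted edgeR p of 0.0297. The other edgeR alternatives with all animals gave 0.0524 to 0.108. With 1 animal left out at a time, the unadjusted edgeR p was between 0.0262 and 0.159. The adjusted p was between 0.730 and 1.00 over the edgeR alternatives (DESeq2 gave no adjusted p for Kdr, with an unadjusted p of 0.0910). Kdr varied between animals about as counting error would give, with a chi-square per degree of freedom of 1.01 in SAL and 0.854 in PRL.

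Flt1 (NM_010228.4) encodes VEGF receptor 1, a high-affinity receptor that also acts as a trap for VEGF. SAL animals 1 to 6 had 5, 3, 5, 4, 4 and 3 reads, and PRL animals 1 to 6 had 3, 5, 1, 5, 2 and 2. The range was 7.52 to 22.8 CPM in SAL animals and 3.95 to 23.0 CPM in PRL. The highest animals, SAL replicate 3 and PRL replicate 4, were at nearly the same level, and both belong to shallow libraries of 218957 and 217483 reads. Means were 12.3 ± 5.71 and 9.29 ± 7.20 CPM, with a log2 fold change of -0.56 ± 0.48 (edgeR adjusted p = 0.999; exact permutation p = 0.444). The permutation test depended on 1 animal: without PRL replicate 4 the difference of PRL minus SAL was -5.70 CPM, with an exact p of 0.0476. A second row of the gene held the same values, and a further row (NM_001363135.1) held 23 reads in SAL and 12 in PRL.

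Emcn (NM_001163522.1) encodes endomucin, a sialomucin of capillary and venous endothelium. SAL animals 1 to 6 had 15, 11, 13, 14, 6 and 7 reads, and PRL animals 1 to 6 had 25, 23, 16, 9, 7 and 12. The lowest, median and highest levels were 18.4, 27.5 and 59.4 CPM in SAL animals and 30.4, 40.8 and 63.3 CPM in PRL. All PRL animals were above 4 of the 6 SAL animals, but SAL replicate 3, at 59.4 CPM, was above 5 of the 6 PRL animals. The means of 32.6 ± 15.1 and 41.9 ± 11.4 CPM gave a log2 fold change of 0.31 ± 0.30 (edgeR adjusted p = 0.999; exact permutation p = 0.268). Without SAL replicate 3 the difference was 14.6 CPM, with an unadjusted exact permutation p of 0.0260, the lowest over the alternatives. The unadjusted edgeR p without that animal was 0.144. The adjusted p of edgeR was at least 0.816 under every edgeR alternative.

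Plvap (NM_032398.2) encodes the protein that forms the diaphragms of endothelial fenestrae, a structure of peritubular capillaries that mature glomerular endothelium lacks. It had 0, 6, 3, 1, 0 and 0 reads in SAL animals 1 to 6 and 7, 3, 0, 0, 2 and 0 in PRL animals 1 to 6. In each group, 3 animals had reads and 3 had none. The maximum was 15.6 CPM in SAL animals and 11.7 CPM in PRL, and the means were 5.198 ± 7.39 and 4.53 ± 5.69 CPM (log2 fold change 0.04 ± 0.73, edgeR adjusted p = 0.999). The chi-square per degree of freedom was 3.86 in SAL and 2.18 in PRL, where counting error alone gives about 1. These values rest on 10 and 12 reads and were not tested. The SAL value of Plvap was the highest of any marker and group. Values well above 1 were also found for Pecam1 (2.25) and Emcn (1.94) in SAL and for Wt1 (2.32) in PRL. In PRL, Pecam1 (1.22) and Emcn (1.12) were near 1. The sign of the fold change was not stable across the alternatives.

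**Figure D2:**
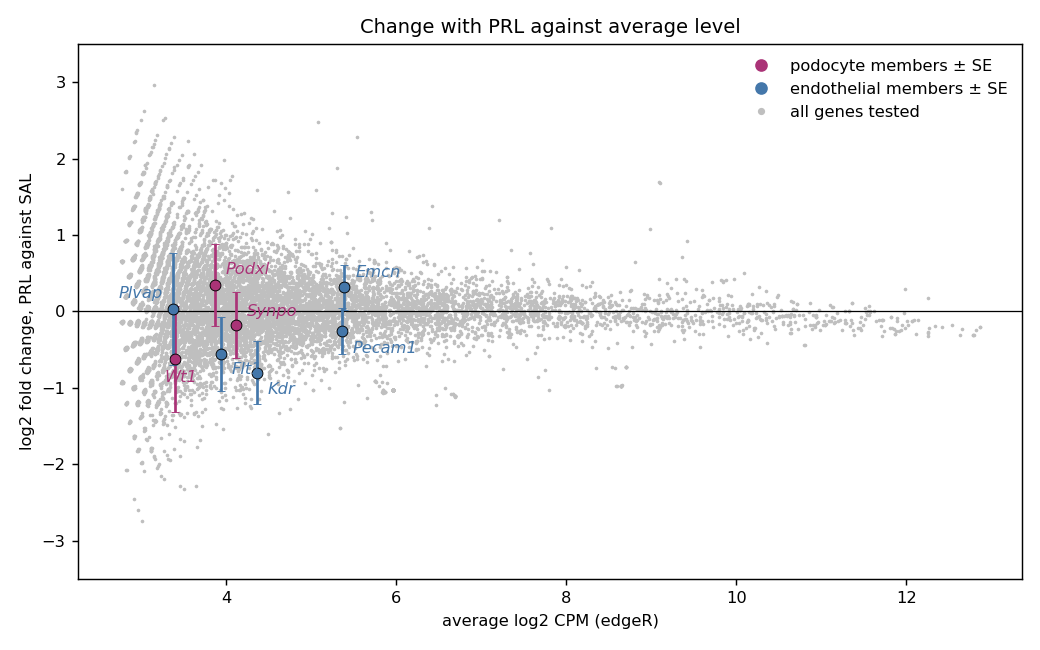
Log2 fold change of PRL against SAL (vertical axis) against average log2 CPM (horizontal axis) from edgeR, for all 10696 genes tested (grey points) and for 3 podocyte and 5 endothelial markers (coloured points with bars of 1 SE). The markers lie between -0.80 (Kdr) and 0.35 (Podxl), within the range of other genes of like level.

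Added over genes within an animal, the podocyte markers reached 25.2 ± 8.40 CPM in SAL (range 13.7 to 37.8) and 24.9 ± 6.61 CPM in PRL (range 11.5 to 28.4). The endothelial markers reached 107 ± 30.7 CPM in SAL (range 71.5 to 160) and 102 ± 24.9 CPM in PRL (range 73.7 to 143). Both sums differed between groups by less than their SD. Podocyte genes accounted for 20.7% of the reads of the 9 markers in SAL (57 of 275, exact binomial 95% interval 16.1% to 26.0%) and for 21.9% in PRL (62 of 283, 17.2% to 27.2%). The intervals overlap and cover counting error only.

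**Figure D3:**
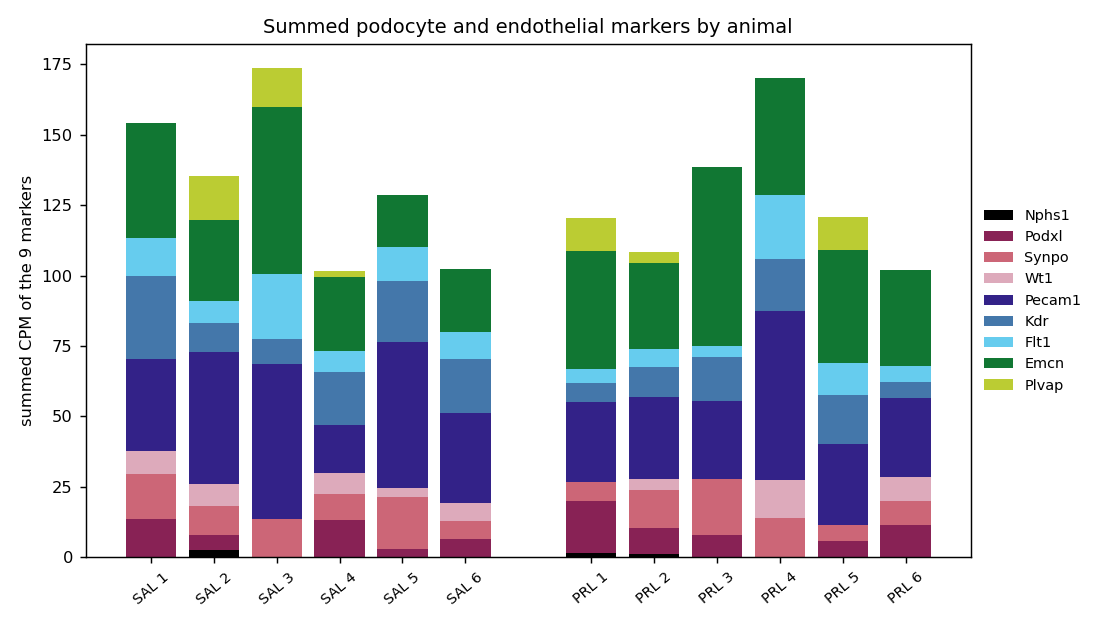
Stacked CPM of the 9 markers (vertical axis) in each of the 6 SAL and 6 PRL animals (horizontal axis), coloured by gene. Totals run from 102 to 174 CPM in SAL animals and from 102 to 170 CPM in PRL, and every bar holds reads of Pecam1, Emcn, Kdr, Flt1 and Synpo.

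Larger lists of genes of the same cells held no called gene in the prolactin experiment. The other podocyte genes (36 genes of the slit diaphragm, cytoskeleton, matrix and transcription) had 32 members tested. After adjustment 0 were called, 0 had an unadjusted p under 0.05, and 13 had a log2 fold change above 0, with a median of -0.10 beside 0.03 for all genes. The genes with most reads were Actn4, an actin crosslinker of the foot process (166 ± 42.7 CPM in SAL animals and 141 ± 25.3 CPM in PRL, log2 fold change -0.29 ± 0.22), Arhgap24, a regulator of Rac (69.1 ± 33.2 and 67.6 ± 11.3 CPM, -0.10 ± 0.26), and Dag1, the matrix receptor dystroglycan (60.6 ± 28.4 and 54.6 ± 7.79 CPM, -0.18 ± 0.27). All 3 are also expressed outside podocytes. Summed over the list, SAL animals held 580 to 887 CPM and PRL animals 590 to 755 CPM.

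The other endothelial genes (44 genes) had 39 members tested, of which 0 were called after adjustment. Of these 39, 21 had a log2 fold change above 0, and the median was 0.08. Igfbp3, an IGF-binding protein of endothelium, had 172 ± 74.0 CPM in SAL animals and 176 ± 88.9 CPM in PRL. Rgcc, a cell cycle regulator found in capillary endothelium, had 121 ± 28.4 and 136 ± 46.6 CPM. Fabp4, a fatty acid carrier of capillary endothelium and fat, had 102 ± 76.8 and 153 ± 63.1 CPM (log2 fold change 0.53 ± 0.33). Fat RNA differed between animals too, since the 6 adipose genes, 5 of which were listed, summed to 7.52 to 49.0 CPM in SAL animals and to 13.8 to 103 CPM in PRL. Its part in the Fabp4 values was not tested.

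Before adjustment, 1 of the 39 genes was higher and 1 was lower in PRL, both named after their values were seen. Plat, the tissue plasminogen activator released by endothelium, had 27.6 ± 8.43 CPM in SAL animals and 51.2 ± 26.1 CPM in PRL (log2 fold change 0.83 ± 0.31, edgeR unadjusted p = 0.0101, adjusted p = 0.673). Cd34, a sialomucin of capillary endothelium, had 10.9 ± 3.68 CPM in SAL animals and 3.32 ± 3.92 CPM in PRL, with a log2 fold change of -1.13 ± 0.56 (edgeR unadjusted p = 0.0492, adjusted p = 0.999). Neither passed the test. Shares of 2.54% higher and 2.34% lower were found over all genes at the same unadjusted threshold.

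Ligands and partners of the VEGF receptors were tested for 15 of 22 genes, with 0 called after adjustment and 0 before it. Their median log2 fold change was 0.01. Vegfa, the ligand made by podocytes and tubules, had 28.1 ± 11.2 CPM in SAL animals and 32.2 ± 17.1 CPM in PRL. The coreceptor Nrp1 had 74.1 ± 18.6 and 71.7 ± 28.5 CPM, and Epas1, the hypoxia-inducible factor of endothelium and interstitium, had 65.5 ± 22.9 and 65.3 ± 32.0 CPM. For all 3 genes the groups differed by less than their SD.

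Mesangial cells, pericytes and smooth muscle share the vessel wall with the endothelium. Of 14 genes, 8 were tested, 0 were called after adjustment and 0 before it, and the median log2 fold change was 0.14. Tagln, a smooth muscle protein, had 82.9 ± 12.2 CPM in SAL animals and 97.2 ± 17.6 CPM in PRL. Rgs5, a pericyte marker, had 26.9 ± 14.7 and 35.1 ± 18.5 CPM, and the PDGF receptor gene Pdgfra had 24.7 ± 7.80 and 34.2 ± 12.3 CPM. The list summed to 154 to 223 CPM in SAL animals and 200 to 265 CPM in PRL. Proximal tubule genes, which mark the cells that fill most of the cortex, summed to 1873 to 4855 CPM in SAL animals and 2159 to 5511 CPM in PRL.

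Markers of other cells in the kidney were measured beside the glomerular ones. No gene of these lists was called in PRL against SAL by edgeR after adjustment, and the median log2 fold change was 0.02 for the proximal tubule, 0.15 for the thick limb and distal tubule, 0.45 for the collecting duct, -0.26 for immune cells, -0.13 for red blood cells and 0.55 for adipose tissue. Before adjustment, Aqp2, the collecting duct water channel (log2 fold change 0.96 ± 0.46, edgeR unadjusted p = 0.0423, adjusted p = 0.996), and Cfd, the adipose gene of adipsin (2.13 ± 0.82, edgeR unadjusted p = 0.0132, adjusted p = 0.712), were higher in PRL, both named after their values were seen. The immune gene with most reads was Cd74, with 186, and the adipose gene with most reads was Cidec, with 58. The part of these cells in the marker values was not tested.

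**Figure D4:**
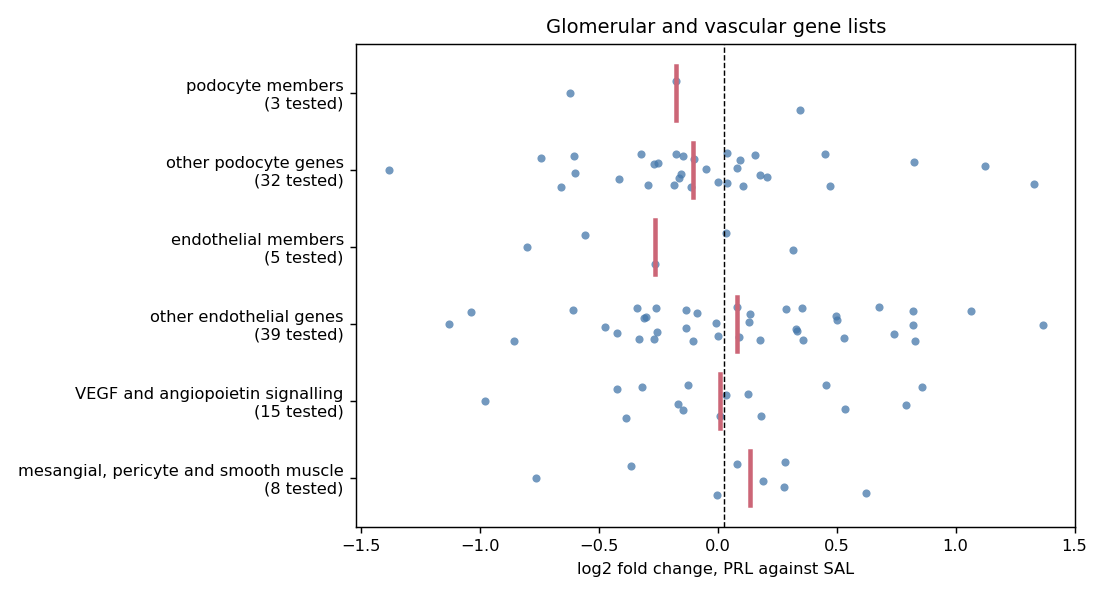
Log2 fold change of PRL against SAL (horizontal axis) for each tested gene (points) of 6 glomerular and vascular lists (vertical axis), with a red bar at each list's median and a dashed line at the median of all genes tested (0.03). The list medians lie between -0.26 and 0.14, and each list spreads to both sides of the line.

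Only Pecam1 and Emcn had at least 100 reads in the prolactin experiment, enough to look for genes with a like pattern. Among 2966 genes with a count in all 12 libraries and a median of at least 10 counts, the highest Pearson r of log2(CPM + 1) with Pecam1 was that of Trappc3 (r = 0.764, Spearman rho = 0.727), followed by Picalm (0.734 and 0.650) and Top1 (0.722 and 0.706). For Emcn the order was Ywhae (r = 0.821, rho = 0.706), Ahsa1 (0.802 and 0.832) and Ywhab (0.800 and 0.769). All values are over the same 12 libraries, and the points share the flow cell but differ in depth. They are the highest of many correlations and describe these libraries only. The markers themselves were left out of the candidates, and the count limits also removed genes with fewer reads. That no other gene of the endothelial lists was among the highest was therefore partly fixed in advance. Nothing is concluded from it.

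In the photoperiod experiment the markers were at the limit of detection. Nphs1, Podxl and Plvap were not listed, and a gene without a read could have had 3 counts in a group, or up to 36.2 CPM for LP, 31.4 CPM for SP12wk and 21.1 CPM for SP28wk. Over all 12 libraries of the table the limit was 9.37 CPM. The pooled level of Podxl in the prolactin experiment, 9.34 CPM, was at this limit and would have given 2.99 reads, while Nphs1 and Plvap, at 0.667 and 4.89 CPM, were below it. Of the 6 genes listed, 4 passed the filter of a count in at least 4 of 12 libraries. Of 5086 genes tested, edgeR called 0.0197% when SP12wk was compared with LP, 0.138% when SP28wk was compared with SP12wk and 0.216% when SP28wk was compared with LP, and none of the 4 markers was among them. In the same order, 7.26%, 6.1% and 8.57% of genes had an unadjusted p under 0.05, against 0, 0 and 1 of the 4 markers. The groups did not overlap for 2.67%, 3.36% and 3.3% of genes and for 0 of the 6 markers listed. These comparisons share groups and are not independent of each other.

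Wt1 had 1 read in LP replicate 1, 1 in SP12wk replicate 1, and 1 and 2 in SP28wk replicates 3 and 4. Its means, in the order LP, SP12wk and SP28wk, were 11.8 ± 23.5, 10.2 ± 20.4 and 15.8 ± 18.4 CPM (SD, n = 4 each). Synpo (XM_036160913.1) had 0.5 reads in LP replicate 4, none in SP12wk, and 2, 0.5, 0 and 1 reads in SP28wk, with a mean of 29.3 ± 34.4 CPM in SP28wk. For both podocyte genes the level was highest in SP28wk, but neighbouring groups did not differ beyond their spread, and all groups held animals at 0.

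Pecam1 (NM_001032378.2) had reads in LP replicates 3 and 4, SP12wk replicate 4 and SP28wk replicate 4, 1 read each. Its means were 23.6 ± 28.1 CPM for LP, 7.06 ± 14.1 CPM for SP12wk and 4.34 ± 8.68 CPM for SP28wk, an order that rests on 4 reads. Kdr had 1 read in LP, 1 in SP12wk and 3 in SP28wk, or 14.02 ± 28.0, 12.5 ± 25.1 and 18.6 ± 26.9 CPM. Emcn had 1 read, in SP28wk replicate 3. The exact permutation p of the 6 listed genes was at least 0.143 in every comparison in which a read was found. The smallest p that 4 animals against 4 allow is 0.0286, but only without ties. Where 3 or fewer animals of a comparison had a read, ties among the others put that value out of reach. Flt1 in SP28wk against LP could not go below its permutation p of 0.143, and Emcn, with 1 read, could show no difference.

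Flt1 was the marker with most reads in the photoperiod experiment, 10 in all. LP animals had none, SP12wk animals had 0, 1, 0 and 2, and SP28wk animals had 2, 0, 1 and 4. The means were 30.1 ± 34.8 CPM in SP12wk and 44.3 ± 36.7 CPM in SP28wk. All groups held animals without a read, and the order of LP, SP12wk and SP28wk followed the depth of the groups, whose totals were 82855, 95462 and 141994 reads. The part of depth in this order was not tested.

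Between SP28wk and LP, the fitted log2 fold change of Flt1 was 3.64 ± 1.504, with an unadjusted edgeR p of 0.0155, an adjusted p of 0.497 and an exact permutation p of 0.143. Since LP had no read, the fitted value is no bound on the fold, and 4 of the 7 reads in SP28wk came from replicate 4. Flt1 was the only marker with an unadjusted p under 0.05 in the photoperiod comparisons, and 8.57% of all genes reached that level in SP28wk against LP. A different row of the gene (XM_036164787.1) also totalled 10 reads, of which 1 was in LP, 3 in SP12wk and 6 in SP28wk. With that row the log2 fold change was 1.77 (edgeR unadjusted p = 0.162, adjusted p = 0.786). The rows differ by a single read more in LP and a single read less in SP28wk. Over the alternatives in which it was tested, the adjusted p was between 0.421 and 0.996.

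**Figure D5:**
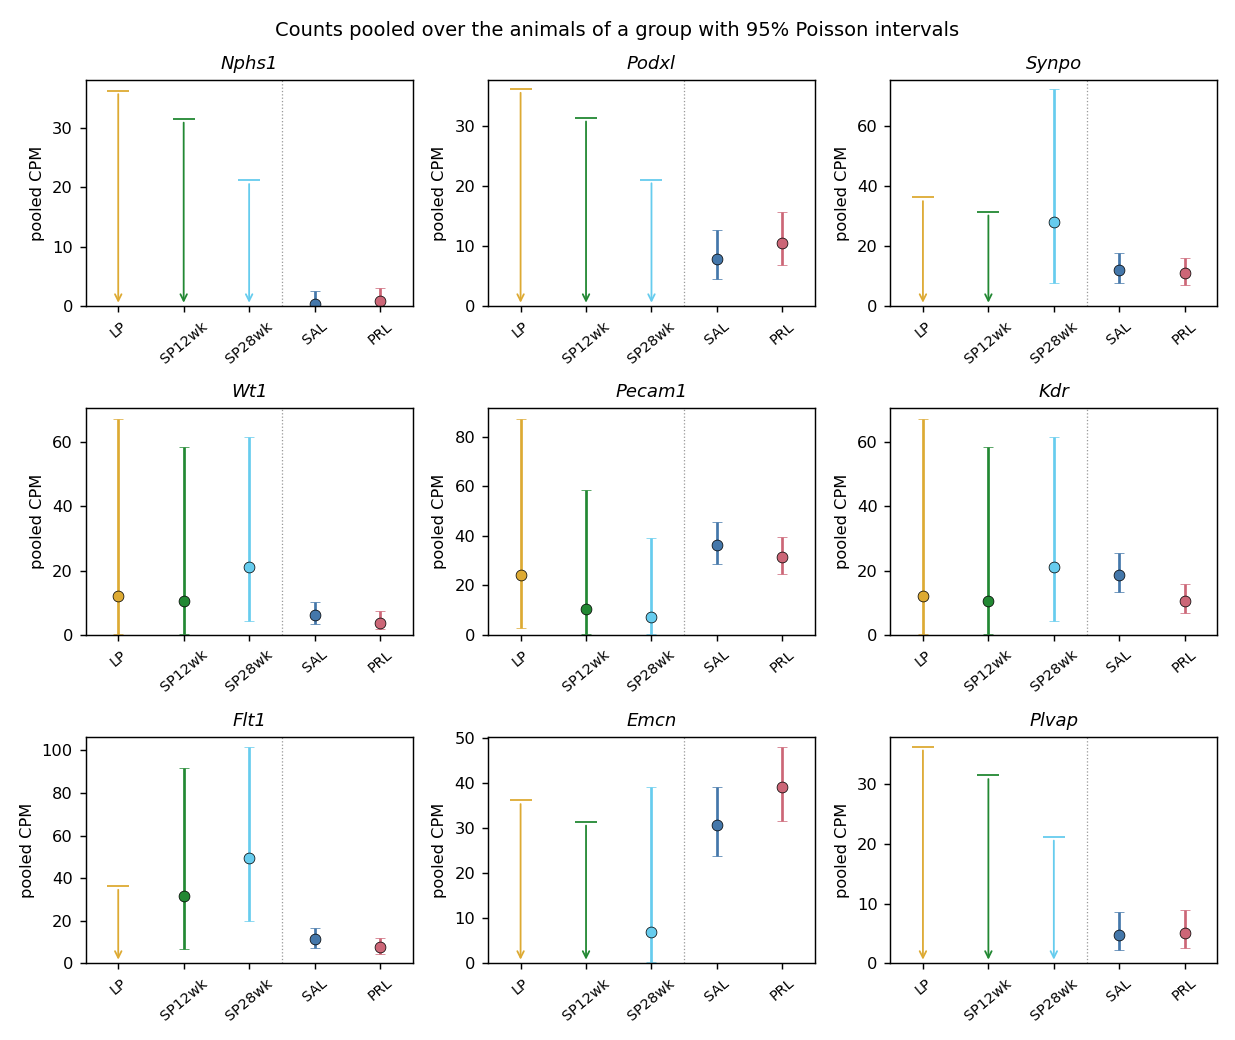
Reads pooled over the animals of a group, rounded to a whole number and divided by the group total, in CPM (vertical axes, a separate scale for each gene), for LP, SP12wk, SP28wk, SAL and PRL (horizontal axes), with exact 95% Poisson intervals. A bar with a downward arrow marks the limit of 3 counts where the rounded number was 0, and the dotted line separates the experiments. Synpo in LP, with 0.5 reads, is drawn this way. Photoperiod intervals are wide, as for Emcn, which had 1 read there and 158 in SAL and PRL together.

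Among genes read in both experiments, the pooled levels were furthest apart for Emcn and Flt1. Emcn had 1 read in the 12 photoperiod libraries (3.12 CPM, exact Poisson 95% interval 0.0790 to 17.4) and 158 in the prolactin libraries (35.2 CPM, 29.9 to 41.1). At the level of the latter, 11.3 reads would have fallen in the photoperiod libraries. Of the 1356 genes with 100 to 200 reads in the prolactin experiment, 155 (11.4%) had at most 1 read in the photoperiod experiment, and Emcn was 1 of these. Pecam1 had 4 reads (12.5 CPM, 3.40 to 32.0) against 152 (33.8 CPM, 28.7 to 39.6), and 30.8% of the genes in that range had at most 4. The Pecam1 values come from different transcript rows. The row used for the photoperiod libraries had 133 reads in the prolactin libraries.

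Flt1 lay the other way, with 31.2 CPM (14.97 to 57.4) in the photoperiod libraries and 9.34 CPM (6.73 to 12.6) in the prolactin libraries. Of 2244 genes with 30 to 60 reads in the prolactin experiment, 272 (12.1%) had 10 or more in the photoperiod experiment, around a median of 3. Wt1 was at 15.6 CPM (5.07 to 36.4) and 4.89 CPM (3.07 to 7.41), whereas Kdr, at 15.6 and 14.5 CPM, and Synpo, at 12.5 and 11.6 CPM, were at like levels. Synpo was also read from different transcript rows, and its photoperiod row had 51 reads in the prolactin libraries against 52 for the row used. No test was made across the tables. Sex, treatment, time in SP and flow cell all differ between the experiments and cannot be told apart.

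The larger lists were as sparse in the photoperiod experiment. Of the other podocyte genes 18 of 36 were tested, and of the other endothelial genes 16 of 44, with 0 called by edgeR after adjustment in any of the 3 comparisons. Before adjustment, Dag1 was lower in SP12wk than in LP, with a log2 fold change of -1.55 ± 0.64 (edgeR unadjusted p = 0.0162, adjusted p = 0.603). It was also lower in SP28wk than in LP (-1.496 ± 0.61, edgeR unadjusted p = 0.0137, adjusted p = 0.4932), in a comparison that shares the LP animals. Eng, the endothelial coreceptor of TGF-β, was higher in SP12wk than in LP before adjustment (3.31 ± 1.53, edgeR unadjusted p = 0.0305, adjusted p = 0.603), and was named after its values were seen. The average level of Eng in the fit (log2 CPM 6.70) was no higher than that of Flt1 (6.80), which had 10 reads in all. Its fold change therefore rests on few reads. No other gene of this pair of lists had an unadjusted p under 0.05 in the photoperiod comparisons. Over all genes tested, 7.26% reached that level in SP12wk against LP and 8.57% in SP28wk against LP. Of the VEGF list 11 of 22 genes were tested, and of the vessel wall list 4 of 14, with 0 called after adjustment. In SP28wk against SP12wk, Tagln was higher before adjustment (log2 fold change 1.65 ± 0.73, edgeR unadjusted p = 0.0226, adjusted p = 0.732). Nrp2 of the VEGF list was lower there (-2.45 ± 1.25, edgeR unadjusted p = 0.0499, adjusted p = 0.813). Both were named here after their values were seen. In this comparison 6.1% of all genes tested had an unadjusted p under 0.05. Nrp2 was also near Flt1 in average level (log2 CPM 6.96 and 6.80).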

How the data were processed

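Kidney RNA of 24 hamsters was sequenced as cDNA on nanopore flow cells, 1 per experiment. The authors basecalled reads with Guppy, trimmed them with Porechop, selected them with Filtlong and mapped them to the mouse genome with Minimap2. As a result, the hamster reads carry mouse transcript names and divergent genes may be undercounted. The submitters' processing notes also name Salmon, but the program that made the counts was not given in the sources used here. Sources also differ on whether cDNA was amplified (a PCR-cDNA kit in the labels, a direct cDNA kit in the methods). The deposited values are estimated counts per mouse RefSeq transcript, without normalization. Values that were not whole numbers made up 3447 of 859080 in the prolactin experiment and 2868 of 439944 in the photoperiod experiment.

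For each gene symbol the transcript row with the highest total in a table was used, since sums over transcripts can count a read several times. CPM was the count divided by the library total over these rows. Rounded counts were fitted with edgeR 4.0.16 (R 4.3.3, TMM scaling, quasi-likelihood test, Benjamini-Hochberg adjustment over all genes tested, threshold 0.05), in 1 model per table and without covariates. Standard errors of log2 fold changes were computed as the absolute change over the root of the F statistic. The 9 markers were also compared by two-sided exact permutation tests of mean CPM, unadjusted over 9 tests in PRL against SAL and up to 6 in each photoperiod comparison. The smallest p for 6 animals against 6 was 0.00216. Group intervals are exact Poisson or binomial at 95%, and a gene without reads was given a limit of 3 counts, both for counting error only. The scripts were tested on simulated data. For edgeR, changes were simulated only in genes with the highest counts, so recovery was not tested for genes with few reads.

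Groups and replicate numbers came from the sample labels. Libraries of a group differed beyond the noise of sampling (1.89 to 10.1 as chi-square per degree of freedom), so that none was a copy of another. Replicates are separate hamsters per the labels and methods. The text names the 9 markers, the 3 genes with most reads of each glomerular and vascular list, any called gene of these lists, the gene with most reads of other lists, and 3 genes of like pattern for markers with at least 100 reads. Some genes that the rule would name are not reported here. The markers, lists and tests were chosen with earlier results of these data known. Alternatives were DESeq2 1.42.0, RLE scaling, no filter, a stricter filter (8 of 12 libraries in the photoperiod table, 12 of 12 in the prolactin table), counts summed over transcripts, a replicate block and each animal left out. A second row of Flt1 with the same total was added as an alternative after the data were seen.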

Additional observations from a re-analysis of the deposited data

Results flagged for a closer look

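In groups of 4 or 6 animals, 11 of 32 sets of CPM values held an animal far from the rest of its group, judged by its gap to the next animal over the range (Dixon's 95% limit). Chance gives about 1 in 20 groups for continuous values. This rate does not apply where 1 animal has a read and the others are at 0, which always passes the limit. Of the 11, 8 rest on a single read in 1 animal beside others at 0. These were Wt1 in LP replicate 1 (47.0 CPM) and SP12wk replicate 1 (40.9 CPM), Pecam1 in SP12wk replicate 4 (28.3 CPM) and SP28wk replicate 4 (17.4 CPM), Kdr in LP replicate 2 (56.1 CPM) and SP12wk replicate 3 (50.2 CPM), Emcn in SP28wk replicate 3 (28.6 CPM) and Nphs1 in SAL replicate 2 (2.60 CPM). Synpo in LP replicate 4 (19.4 CPM) rests on 0.5 reads.

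The other two values rest on more reads. Pecam1 in PRL replicate 4 was 59.8 CPM from 13 reads, where the other PRL animals had 27.7 to 29.1 CPM. Emcn in PRL replicate 3 was 63.3 CPM from 16 reads, where the others had 30.4 to 41.9 CPM.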

How the results depend on the processing

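No marker was called in any comparison under any alternative that gave it an adjusted p. DESeq2 gave none for the 8 markers in PRL against SAL, and under the stricter filter 0 markers were tested in the photoperiod table. By contrast, the calls over all genes varied. In PRL against SAL, where 0 genes were called, there were 92 without a filter, 1 with counts summed over transcripts, 52 with a replicate block and 0 to 44 with 1 animal left out (44 without PRL replicate 4, 27 without SAL replicate 6, 26 without PRL replicate 3 and 1 without SAL replicate 5). In SP12wk against LP, the single call became 0 with DESeq2, without a filter, with the stricter filter, with summed counts and with the replicate block, and ranged from 0 to 9 with 1 animal left out. In SP28wk against SP12wk, 7 calls became 2 with DESeq2, 2 with the stricter filter and 0 with summed counts, and ranged from 2 to 11. In SP28wk against LP, 11 calls became 2 with DESeq2, 5 with the stricter filter and 0 with summed counts, and ranged from 8 to 56. The cause of these moves was not tested.

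Same-numbered animals showed no clear common deviation. Their r lay between -0.146 and 0.202 over 6 pairs in the prolactin table, 1 over 0.1. It lay between -0.0948 and 0.171 over 12 pairs in the photoperiod table, 2 over 0.1. The median r of same-numbered and other pairs was 0.0492 and 0.00648 in the prolactin table and -0.0144 and -0.00193 in the photoperiod table. So few pairs cannot exclude a pairing by replicate number. With the replicate block, 6 and 12 genes were called in SP28wk against SP12wk and against LP.

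Some signs turned, with values near 0 or resting on few reads. The log2 fold change of Plvap in PRL against SAL was -0.14 with DESeq2 and -0.19 with the replicate block, and its CPM difference was 0.305 with summed counts. In SP12wk against LP, Wt1 was 0.028 without a filter, and Kdr was 0.054 without a filter, 0.074 with summed counts and 0.023 with the replicate block. Pecam1 in SP28wk against SP12wk was 0.97 with summed counts. With 1 animal left out, log2 fold changes ranged from -0.069 to 0.67 for Podxl and, in the 6 fits it passed, from -0.23 to 0.23 for Plvap in PRL against SAL, and from -0.31 to 0.42 for both Wt1 and Kdr in SP12wk against LP. CPM differences ranged from -0.169 to 0.499 for Nphs1, -0.0408 to 3.64 for Podxl, -2.82 to 0.0632 for Synpo and -2.11 to 1.41 for Plvap. In all, 296 log2 fold changes kept their sign and, where an adjusted p was given, their side of the threshold, and 19 turned. Of the CPM differences, 109 did so, 15 turned, and 2, given above for Flt1 and Emcn, passed the unadjusted threshold. The other Flt1 row, added after the data were seen, changed no call.

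Depth limits the comparisons. In the photoperiod libraries 1 read was worth 17.4 to 63.7 CPM, more than the mean CPM of 6 of the 9 markers in both SAL and PRL.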
